A study of Mus musculus with 32 samples.

Results

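The 10 genes described here belong to the Notch pathway and to the bile duct lining, and are followed in mouse liver after partial hepatectomy and during embryonic growth: the receptors Notch1, Notch2 and Notch3, the ligand Jag1, the target Hes1, the duct transcription factor Sox9, and the duct markers Krt19, Krt7, Spp1 and Epcam. Of these 10 genes, 9 were measured among 18194 genes in all, because the annotation used here pairs no probe set of the array with Spp1, which is not analysed here. A gene was read from its probe set of highest mean over all 32 arrays, among probe sets listed with 1 gene symbol. The rule itself uses gene names and mean levels.

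Liver RNA of CD-1 mice was hybridised to Affymetrix Mouse Genome 430 2.0 arrays to set regenerating liver beside developing liver. Embryonic livers were microdissected at 6 stages counted in days after conception, namely 10.5 and 11.5 days, then 12.5 and 13.5 days, and lastly 14.5 and 16.5 days (12 arrays). Adult liver of 10-week-old females came from 1, 2 and 6 h, from 12, 18, 24 and 30 h, and from 48 and 72 h after a 2/3 hepatectomy that also took out the gallbladder (18 arrays), and from unoperated liver, called time 0 (2 arrays). There were 16 groups of 2 arrays, and the RNA on an array was pooled from 3 or more tissues of different animals. No sham-operated group is among the samples, and precision is limited by having 2 arrays per group. All 12 embryonic samples are also labelled with an age of 10.5 days and described as liver of adult females; their groups were taken from the source names, which give the same stages as the titles.

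Notch receptors are cut by proteases after binding a ligand of the Jagged or Delta kind on a neighbouring cell, and the freed inner part enters the nucleus, where it joins the DNA-binding factor Rbpj and switches on targets such as the repressor Hes1. In developing liver, Jag1 on the mesenchyme around the portal vein acts through Notch2 on nearby hepatoblasts, which turn on Sox9 and duct keratins and form bile ducts; loss of JAG1 or NOTCH2 in people causes Alagille syndrome, with too few ducts. Epcam, an adhesion protein of epithelial surfaces, and the keratins Krt7 and Krt19 mark the duct lining of adult liver. In RNA of whole liver, fewer cells of a type and less RNA per cell cannot be told apart.

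The 250 bases before the annotated start of 4 members are shown: Notch3 and Krt7, whose arrays of 10.5 days were both above all other arrays, and Jag1 and Epcam, whose probe sets differed in the embryo against time 0. They come from RefSeq (build GRCm38.p6), which gave a window for 6 of the 9 measured members; Hes1, Sox9 and Krt19 are named only. The windows are chr17:32166891-32167140 on the minus strand for Notch3, chr2:137116521-137116770 on the minus strand for Jag1, chr15:101412153-101412402 on the plus strand for Krt7 and chr17:87635729-87635978 on the plus strand for Epcam. Capitals mark the N box CACNAG, bound by repressors of the Hes kind, and the GC box GGGCGG, bound by factors of the Sp kind, on either strand.
Notch3: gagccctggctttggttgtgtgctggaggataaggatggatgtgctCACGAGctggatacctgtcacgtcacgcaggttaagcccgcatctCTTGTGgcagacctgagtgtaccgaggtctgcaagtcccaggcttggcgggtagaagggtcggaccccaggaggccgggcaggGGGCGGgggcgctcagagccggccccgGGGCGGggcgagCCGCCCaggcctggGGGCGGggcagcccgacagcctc
Jag1: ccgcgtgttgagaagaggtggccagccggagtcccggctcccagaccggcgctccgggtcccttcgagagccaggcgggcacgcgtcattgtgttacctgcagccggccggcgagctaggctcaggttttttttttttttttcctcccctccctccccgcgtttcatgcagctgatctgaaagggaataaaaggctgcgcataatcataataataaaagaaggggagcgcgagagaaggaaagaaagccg
Krt7: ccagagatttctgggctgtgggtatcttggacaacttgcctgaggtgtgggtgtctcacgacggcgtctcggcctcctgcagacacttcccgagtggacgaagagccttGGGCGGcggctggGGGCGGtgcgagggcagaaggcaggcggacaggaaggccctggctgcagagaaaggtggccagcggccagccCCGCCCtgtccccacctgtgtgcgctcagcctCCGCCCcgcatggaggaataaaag
Epcam: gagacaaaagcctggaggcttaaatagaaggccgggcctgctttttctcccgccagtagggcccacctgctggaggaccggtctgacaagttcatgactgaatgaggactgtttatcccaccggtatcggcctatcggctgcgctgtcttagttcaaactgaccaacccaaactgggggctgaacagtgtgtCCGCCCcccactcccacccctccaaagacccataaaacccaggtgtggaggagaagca
The Notch3 window held 2 N boxes, starting 204 and 159 bases before the start, and 4 GC boxes. Krt7 held 4 GC boxes and Epcam 1, while the Jag1 window held neither motif. The windows of Notch1 and Notch2, not printed, held 1 N box and 5 GC boxes each. Over 32851 windows of this length, 36.7% held an N box and 32.7% a GC box, in each case on 1 strand or the other; the 2 motifs share no base in the windows shown. The core letters of the Rbpj site, TGGGAA, were in 21.6% of all windows and in 0 of the 4 shown, and TATAAA was in 12.4% and in 0 of the 4. A match is a run of letters and nothing more, and a window without one says only that these letters are not in it.

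The depth of an array shows in its intensities: array medians lay between 69.7 and 79.5, so a member near that level sat in the middle of all probe sets. Hepatocyte markers were present in every group, with Alb at 956 and 1541 in the arrays of 10.5 days, 6058 to 8941 at the later stages, 7276 to 10740 after hepatectomy and 8205 and 7464 at time 0. The hepatocyte genes Tat and G6pc read below 0 on both arrays of 10.5 days and on both of 11.5 days. G6pc also did so at 12.5, 13.5 and 16.5 days. The first array of 10.5 days had a Gapdh 3′ over 5′ log2 ratio of 1.49, against -0.32 on the second and -0.43 to -0.17 on the 10 later embryonic arrays. The second array of 48 h had ratios of 2.42 for Actb and 1.22 for Gapdh, against 0.57 to 1.72 and -0.44 to 0.32 on the other 19 adult arrays. Such ratios rise when RNA is broken or poorly copied, and calls by the members' probe sets of highest mean that change without either array are given with it and without it. Among other probe sets, without the second array of 48 h the F test over 9 times gave Sox9 1433889_at an adjusted p of 0.0402, against 0.133 with it. Without the first array of 10.5 days, Notch3 1421964_at gave 0.40 (adjusted p = 0.0187) in the embryo against 48 to 72 h and -0.82 (0.0373) at 12 h, Notch1 1418633_at -0.10 per day (0.0136) and 0.65 at 10.5 days against later (0.0218), and Jag1 1421106_at -0.13 per day (0.085).

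**Figure D1:**
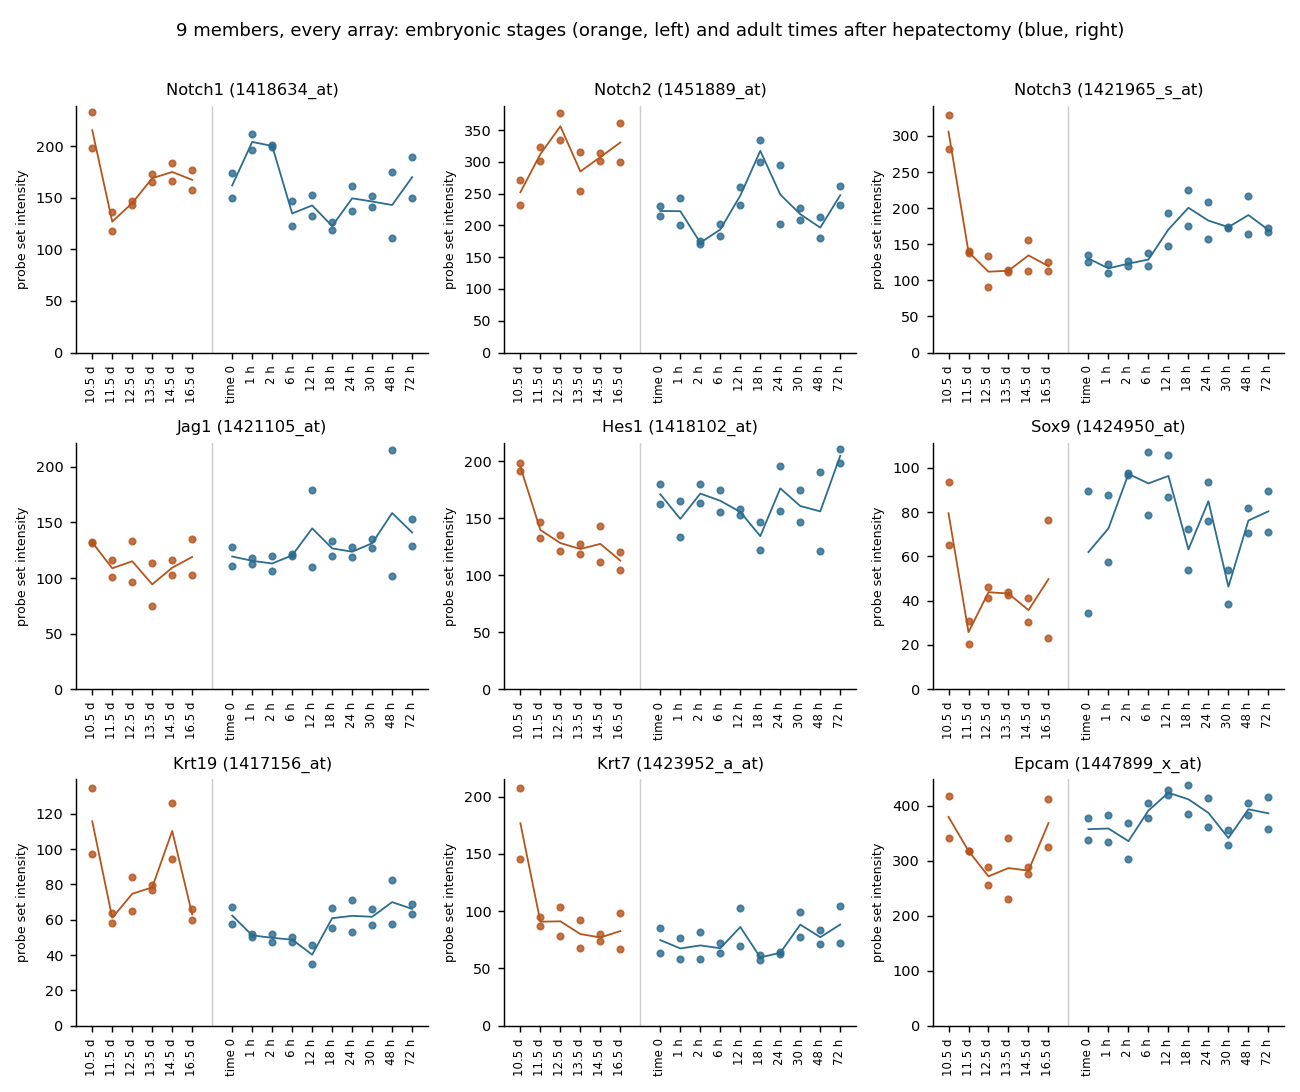
Probe set intensity (linear, y axis from 0) of the 9 measured members on every array; orange points on the left are embryonic stages in days post conception and blue points on the right are adult liver at time 0 and after hepatectomy, with lines through the group means of 2 arrays. Notch3 and Krt7 stand highest on both arrays of 10.5 days, and Notch2 stands mostly higher in the embryo than in adult liver.

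After hepatectomy, none of the 9 members changed past the threshold in any of the 3 phases or at any of the 9 single times against time 0. Log2 changes are on the scale log2(intensity + 16), with limma's moderated test over all genes and Benjamini-Hochberg adjustment, called at an adjusted p under 0.05. The members counted 0 called at 1 to 6 h (background 0.978% of all genes), 0 at 12 to 30 h (background 4.79%) and 0 at 48 to 72 h (background 2.65%). At 1 or more single times, 0 members were called, where 15.6% of all genes were. At an unadjusted p under 0.05 the counts were 0, 1 and 1, and the 1 was Notch3 in both phases. No member moved by more than 0.49 on the log2 scale in a phase, the value of Sox9 at 1 to 6 h (0.49 ± 0.27 SE, limma adjusted p = 0.748). By a moderated F test over the 9 times, 2 members varied, Notch3 (adjusted p = 0.035) and Notch2 (adjusted p = 0.0375), against a background of 18.2%.

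Notch3 is a receptor best known from the smooth muscle and pericytes around vessels. At time 0 its probe set read 134 and 126, with 123 and 111 for 1 h, 119 and 127 for 2 h, and 120.2 and 137 for 6 h. It then read 193 and 147 for 12 h, 225 and 176 for 18 h, 157 and 208 for 24 h, 173 and 174 for 30 h, 216 and 164.8 for 48 h, and 167 and 173 for 72 h. All 12 arrays of 12 to 72 h, at 147 to 225, lay above all 8 arrays of time 0 to 6 h, at 111 to 137. The log2 change against time 0 was 0.43 ± 0.15 (SE) at 12 to 30 h (adjusted p = 0.115) and 0.42 ± 0.16 at 48 to 72 h (adjusted p = 0.226); after quantile normalization the first was 0.45 with an adjusted p of 0.0445. The split at 12 h was seen in the data and was not tested, and the share of all genes that split there was not counted. The second probe set of Notch3 did not follow it, with 3.92 to 18.0 at 12 to 72 h and 9.85 to 28.4 at time 0 to 6 h. The F test call of Notch3 was lost when any 1 of 11 arrays was left out, at adjusted p values up to 0.0909.

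Notch2, the receptor that forms ducts with Jag1, was lowest at 2 h and highest at 18 h in adult liver by its probe set of highest mean. The second probe set, 1455556_at, did not follow it, with 229 and 253 at 2 h and 175.5 and 145.8 at 18 h. At time 0 that second probe set read 159.7 and 207, and its F test over the 9 times gave an adjusted p of 0.211. The probe set of highest mean read 214 and 231 at time 0, with 244 and 201 for 1 h, 170.1 and 175 for 2 h, and 203 and 184 for 6 h. It then read 261 and 233 for 12 h, and 335 and 299 for 18 h. Later arrays gave 202 and 295 for 24 h, 208 and 227 for 30 h, 213 and 179.6 for 48 h, and 233 and 262 for 72 h. Both arrays of 18 h exceeded the other 18 adult arrays. This F test call, too, was lost when any 1 of 11 arrays was left out (adjusted p up to 0.158).

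Notch1, a receptor of endothelium and many epithelia, read 197 and 212 at 1 h and 201 and 199 at 2 h, against 175 and 149.7 at time 0; the 2 early times did not overlap time 0, and no time was called. Its F test gave an adjusted p of 0.0567. That test passed the threshold without the second array of 48 h (0.0132), with array weights (0.00623), when its probe sets were averaged (0.0193) and after quantile normalization (0.028), among other settings, and gave 0.191 with only the groups compared. The other members overlapped time 0 more broadly. Sox9 read 38.6 to 107 on its 18 arrays after hepatectomy, against 89.5 and 34.5 at time 0, a baseline that itself spanned most of that range. Krt19, the keratin used most to stain ducts, read 34.8 to 82.3 after hepatectomy against 57.6 and 67.1 at time 0. All its arrays of 1, 2, 6 and 12 h, at 34.8 to 52.1, lay below both of time 0. No time was called, with 12 h at -0.48 (limma adjusted p = 0.12). How many of all genes keep clear of time 0 in this way was not counted. Krt7 read 57.5 to 104 against 85.8 and 63.8 at time 0, Hes1 121 to 211 against 179.9 and 162, and Epcam 303 to 438 against 378 and 337.

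For Jag1 the probe sets differed after hepatectomy. The probe set of highest mean, 1421105_at, read 102 to 215 after hepatectomy, against 111 and 128 at time 0, and gave an F test adjusted p of 0.947. Probe set 1434070_at read 69.4 and 126 at 12 h, against 33.0 and 33.2 at time 0, while the other 16 arrays after hepatectomy stayed at 14.4 to 46.0. Both arrays of 12 h lay above every other adult array. Its F test over the 9 times gave an adjusted p of 0.00241 over 34958 probe sets (background 16.2%), and 12 h alone, chosen after the values were seen, gave a log2 change of 1.17 ± 0.25 with an adjusted p of 0.00467 (background 7.9%). Without the second array of 12 h the change was 0.80 with an adjusted p of 0.136, and the F test gave 0.0524. With only the groups compared, 12 h gave an adjusted p of 0.327, and with a pseudocount of 64 its change was 0.71. The third probe set, 1421106_at, read 29.7 and 19.7 at 12 h, against 31.3 and 29.4 at time 0, and so showed no such point.

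**Figure D2:**
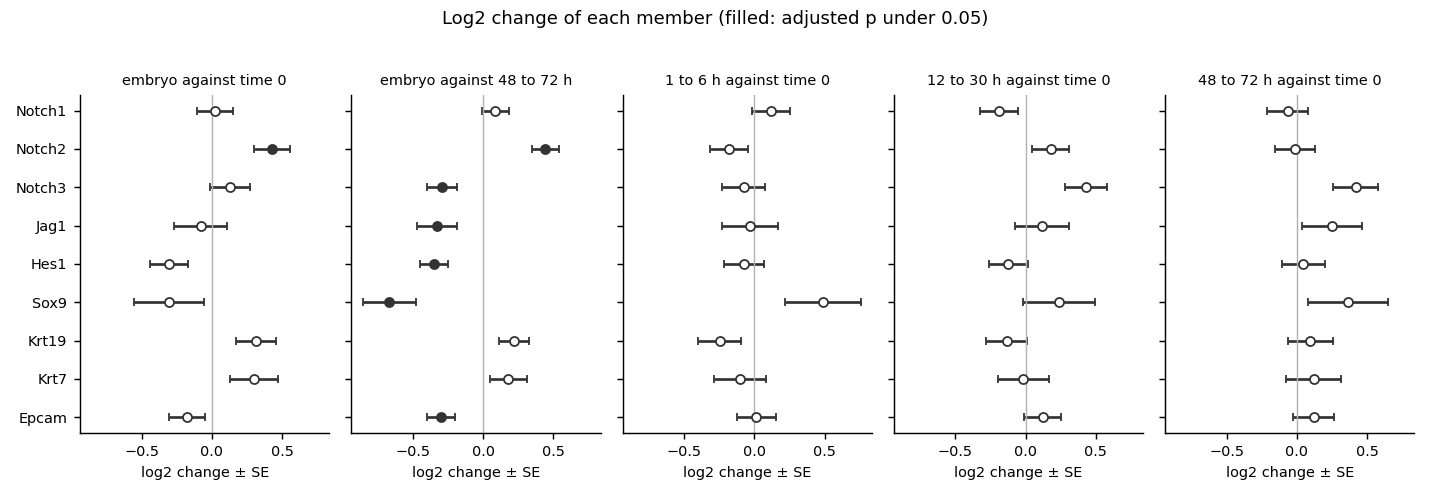
Log2 change of each member with its standard error (x axis, log2 scale of intensity + 16) in 5 comparisons, embryonic ones on the left; filled points have an adjusted p under 0.05 in limma's test over 18194 genes. Of the 9 members 1 is called in the embryo against time 0, 6 in the embryo against 48 to 72 h, and 0 in each phase against time 0.

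Among the members, Notch2 was higher in the embryo than in adult liver at time 0. Over the mean of the 6 stages against time 0, only Notch2 was called among the 9 members (1 higher, 0 lower; background 55.7% of all genes). The median log2 change of the members was 0.02, and that of all genes 0.02. Hes1 (-0.30, adjusted p = 0.0605) and Krt19 (0.31, adjusted p = 0.0648) missed the threshold and passed it without the second array of 48 h (adjusted p = 0.0281 and 0.0492). Notch2 read 232 and 272 at 10.5 days, 301 and 323 at 11.5 days, 334 and 377 at 12.5 days, 315 and 254 at 13.5 days, 313 and 302 at 14.5 days, and 299.9 and 361 at 16.5 days, against 214 and 231 at time 0. All 12 embryonic arrays lay above both arrays of time 0, and 2 of them above every adult array. The log2 change was 0.43 ± 0.13 (SE, adjusted p = 0.00674). Without the first array of time 0 it was 0.38 (adjusted p = 0.0874), and after quantile normalization it was 0.20 (adjusted p = 0.137). The second probe set of Notch2, 1455556_at, gave 0.20 (adjusted p = 0.325).

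At 48 to 72 h, 10 of 11 genes of cell division were higher than at time 0 (background 2.65%). The summed level of these genes was 418 and 2305 on the arrays of 48 h and 3443 and 4163 at 72 h. It was 312 and 220 at time 0 and 193 and 617 at 1 h, so the first array of 48 h lay within the range of earlier times. In the embryo against 48 to 72 h, 6 of the 9 members were called, 1 higher and 5 lower (background 66.6%). Their median change was -0.29, against 0.03 for all genes. Notch2 was higher in the embryo by 0.44 ± 0.10 (adjusted p = 0.000363) by its probe set of highest mean. Its second probe set, 1455556_at, gave 0.15 and was not called (adjusted p = 0.313). Sox9 read 20.6 to 93.7 with a median of 42.0 in the embryo, against 70.6 to 89.6 at 48 to 72 h, a log2 change of -0.67 ± 0.19 (adjusted p = 0.00392). Hes1 changed by -0.35 ± 0.10 (adjusted p = 0.0047), Epcam by -0.30 ± 0.10 (adjusted p = 0.0108), Notch3 by -0.29 ± 0.11 (adjusted p = 0.0221) and Jag1 by -0.33 ± 0.14 (adjusted p = 0.046). For Epcam, Jag1 and Notch3 other probe sets went the opposite way: 1421964_at of Notch3 gave 0.34 (adjusted p = 0.0529). With array weights the calls of Sox9 (adjusted p = 0.0614), Epcam (0.104), Jag1 (0.123) and Notch3 (0.124) were lost. With a pseudocount of 64 the change of Sox9 was -0.39, and after quantile normalization that of Epcam was -0.60 and that of Notch2 0.24. Without the first array of 48 h, Hes1 gave -0.20 (adjusted p = 0.0853) and Notch3 -0.20 (adjusted p = 0.15). Without the second array of 48 h Jag1 gave -0.09 (adjusted p = 0.582), and its call was lost without any 1 of 24 of the 32 arrays, the first of 10.5 days among them (adjusted p = 0.057). Without 1 or the other array of 72 h, Notch3 gave -0.30 and -0.28 (adjusted p = 0.0506 and 0.0682), and without the second Epcam gave -0.25 (adjusted p = 0.0714).

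Within the embryo, several members were high at 10.5 days and lower from 11.5 days on. By an F test over the 6 stages 4 members varied, Notch3 (adjusted p = 5.75e-05), Krt19 (0.00835), Krt7 (0.0103) and Hes1 (0.0461), against a background of 21.2%. The F test call of Hes1 was lost without any 1 of 23 of the 32 arrays, among them the first of 10.5 days (adjusted p = 0.21), and that of Krt7 without the first array of 10.5 days (adjusted p = 0.299). Notch1 gave an adjusted p of 0.0534 over the stages, and 0.0127 without the second array of 48 h. By the linear change per day 3 members fell, Notch3 (-0.15 log2 per day, adjusted p = 0.000285), Krt7 (-0.13, 0.00544) and Hes1 (-0.10, 0.00696), against a background of 27.9%. Without the groups of 10.5 days and 48 h these slopes were -0.01, -0.03 and -0.05 with adjusted p values of 0.838, 0.616 and 0.242. Without the first array of 16.5 days the slopes of Krt7 and Hes1 were -0.09 and -0.08 (adjusted p = 0.0981 and 0.0702).

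The contrast of 10.5 days with the mean of the 5 later stages was therefore added after the data were seen, so its p values describe a pattern already noticed. It called 6 members, all higher at 10.5 days, against a background of 26.7% of genes called in either direction. The median log2 change of the 9 members was 0.51, and that of all genes -0.00.

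Notch3 read 282 and 329.5 at 10.5 days, against 138 and 140.3 at 11.5 days, 90.3 and 134 at 12.5 days, 114 and 112 at 13.5 days, 156 and 113 at 14.5 days, and 126 and 113 at 16.5 days. Both arrays of 10.5 days lay above all other arrays of the series, adult ones included. For how many of all genes this holds was not counted. The log2 change was 1.21 ± 0.15 (SE, adjusted p = 1.31e-06), or 2.32-fold. Its second probe set, 1421964_at, read 37.4 and 69.3 at 10.5 days against 7.32 to 29.4 later, and gave 1.03 ± 0.20 (adjusted p = 0.000547). Without the second array of 10.5 days that probe set gave 0.69 (adjusted p = 0.0508). With any 1 array left out, the first probe set kept its call, at 1.11 to 1.32.

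Krt7, a keratin of ducts and of other simple epithelia, read 208 and 146 at 10.5 days, 94.97 and 86.7 at 11.5 days, 78.6 and 104 at 12.5 days, 92.3 and 67.8 at 13.5 days, 74.0 and 80.1 at 14.5 days, and 66.8 and 98.5 at 16.5 days. Both arrays of 10.5 days again exceeded all other arrays, and the later stages overlapped adult liver at 57.5 to 104. The log2 change was 0.93 ± 0.18 (adjusted p = 0.000318) and stayed called at 0.70 to 1.17 with any 1 array left out. Hes1 read 192 and 199 at 10.5 days against 104.6 to 147 at the later stages. Those later arrays and the 10.5 day arrays did not overlap, whereas adult liver at 121 to 211 overlapped both. The log2 change was 0.58 ± 0.14 (adjusted p = 0.0028) and stayed called at 0.54 to 0.61.

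Notch1, Sox9 and Krt19 were called as well. By the probe sets of highest mean, each of these calls rested on the first array of 10.5 days, the one with the high Gapdh ratio. Notch1 read 233 and 198 at 10.5 days against 118 to 184 later (log2 change 0.43 ± 0.13, adjusted p = 0.0172), and 0.32 without that array (adjusted p = 0.274). Sox9 read 93.7 and 65.4 at 10.5 days against 20.6 to 76.5 later (0.81 ± 0.25, adjusted p = 0.0211), and 0.60 without it (adjusted p = 0.319). The Sox9 call was also lost with array weights (adjusted p = 0.111) and with only the groups compared (0.0567). Krt19 read 134.5 and 96.9 at 10.5 days and, in a second high stage, 126 and 94.4 at 14.5 days, against 58.2 to 84.4 at the other 4 stages. Its log2 change at 10.5 days was 0.51 ± 0.14 (adjusted p = 0.0106), and 0.30 without the first array (adjusted p = 0.347). Notch2 ran the other way and was not called, at -0.31 ± 0.13 (adjusted p = 0.0762), while its second probe set read 0.56 ± 0.17 (adjusted p = 0.0164), and 0.39 without the first array of 10.5 days (adjusted p = 0.32). With array weights that probe set gave an adjusted p of 0.0616.

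The 9 members have 17 probe sets, and 6 members have more than 1. With every probe set tested on its own, 13 of the 17 were higher at 10.5 days than later and 0 lower (background 25% of 34958 probe sets). Against time 0, 3 were higher in the embryo and 0 lower (background 52.1%). Against 48 to 72 h, 4 were higher and 7 lower (background 63.5%), and over the stages 9 fell per day and 0 rose (background 25.8%). The probe sets of a gene share that gene, so these counts are not independent.

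For Epcam the choice of probe set decided the direction. The probe set of highest mean, 1447899_x_at, is of a kind whose probes may also bind other transcripts; it read 232 to 418 in the embryo against 378 and 337 at time 0, a log2 change of -0.18 (adjusted p = 0.255). Probe set 1416579_a_at read 222 and 180.3 at 10.5 days, 62.5 and 83.9 at 11.5 days, 83.7 and 71.6 at 12.5 days, 82.0 and 75.9 at 13.5 days, 106 and 79.96 at 14.5 days, and 18.7 and 34.1 at 16.5 days. Adult liver read 11.5 to 42.1, with 21.9 and 33.1 at time 0, so that 10 of the 12 embryonic arrays lay above all adult arrays and those of 16.5 days lay among them.

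That probe set of Epcam gave a log2 change of 1.15 ± 0.19 against time 0 (adjusted p = 2.2e-05), 1.22 against 48 to 72 h (adjusted p = 1.42e-07), -0.29 per day (adjusted p = 2.31e-06) and 1.41 ± 0.19 at 10.5 days against the later stages (adjusted p = 6.76e-06). With any 1 array left out the first stayed at 0.96 to 1.34 and the last at 1.27 to 1.55, all called. The difference between the 2 probe sets of Epcam was itself tested over 16764 pairs and came to 1.33 ± 0.21 in the embryo against time 0 (adjusted p = 2.62e-05; background 45.5%) and 1.10 ± 0.21 at 10.5 days against later (adjusted p = 9e-04; background 18.3%). Over the 16 group means the 2 probe sets of Epcam had a Pearson r of -0.51, given as a description of groups that share arrays.

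Jag1 was split between its probe sets as well. Probe set 1434070_at read 197 and 155 at 10.5 days, 66.3 and 92.5 at 11.5 days, 77.4 and 67.4 at 12.5 days, 53.5 and 65.7 at 13.5 days, 45.9 and 55.1 at 14.5 days, and 35.9 and 29.3 at 16.5 days, against 33.0 and 33.2 at time 0. Its level stepped down at each later stage, and both arrays of 16.5 days were close to time 0. It gave 0.80 against time 0 (adjusted p = 0.00134) and 1.39 ± 0.19 at 10.5 days against later (adjusted p = 9.88e-06). Probe set 1421106_at read 106 and 89.5 at 10.5 days against 14.2 to 41.7 later, with the same change of 1.39 ± 0.24 (adjusted p = 0.000155). Against time 0, however, 1421106_at gave 0.13 and was not called (adjusted p = 0.676). The probe set of highest mean, 1421105_at, read 131 and 133 at 10.5 days against 74.7 to 135.5 later and changed by 0.26 ± 0.19 (adjusted p = 0.356). The difference between 1434070_at and that probe set was 1.14 ± 0.26 (adjusted p = 0.00392). With a pseudocount of 64, 1421106_at changed by 0.82, and against time 0 the changes of 1434070_at and of Epcam 1416579_a_at were 0.49 and 0.69, all still called.

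Sox9 differed in size more than in direction. Probe set 1433889_at read 101 and 137 at 10.5 days against -1.49 to 38.7 later, a log2 change of 2.13 ± 0.35 (adjusted p = 9.02e-05), and 1451538_at read 93.8 and 84.9 against 3.53 to 42.2, a change of 1.57 ± 0.25 (adjusted p = 5.39e-05). Both kept their calls with any 1 array left out, at 1.94 to 2.33 and 1.5 to 1.63. Because the later levels are near the floor, the sizes depend on the pseudocount: they were 1.19 and 0.86 with a pseudocount of 64, and 2.87 and 2.06 with 4. The 2 arrays of 10.5 days were thus above all later stages and all adult arrays by these 2 probe sets, and 1 of the 2 was above the later stages by the probe set of highest mean. Against 48 to 72 h, 1433889_at was lower in the embryo by -0.73 (adjusted p = 0.0196), as the first probe set was, but without the first array of 48 h it gave -0.41 (adjusted p = 0.212), and without the first of 72 h -0.71 (adjusted p = 0.0633). Array weights also ended that call (adjusted p = 0.142). For Notch1 the second probe set, 1418633_at, was lower in the embryo than at 48 to 72 h, at -0.48 (adjusted p = 0.000809), where the first gave 0.09.

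**Figure D3:**
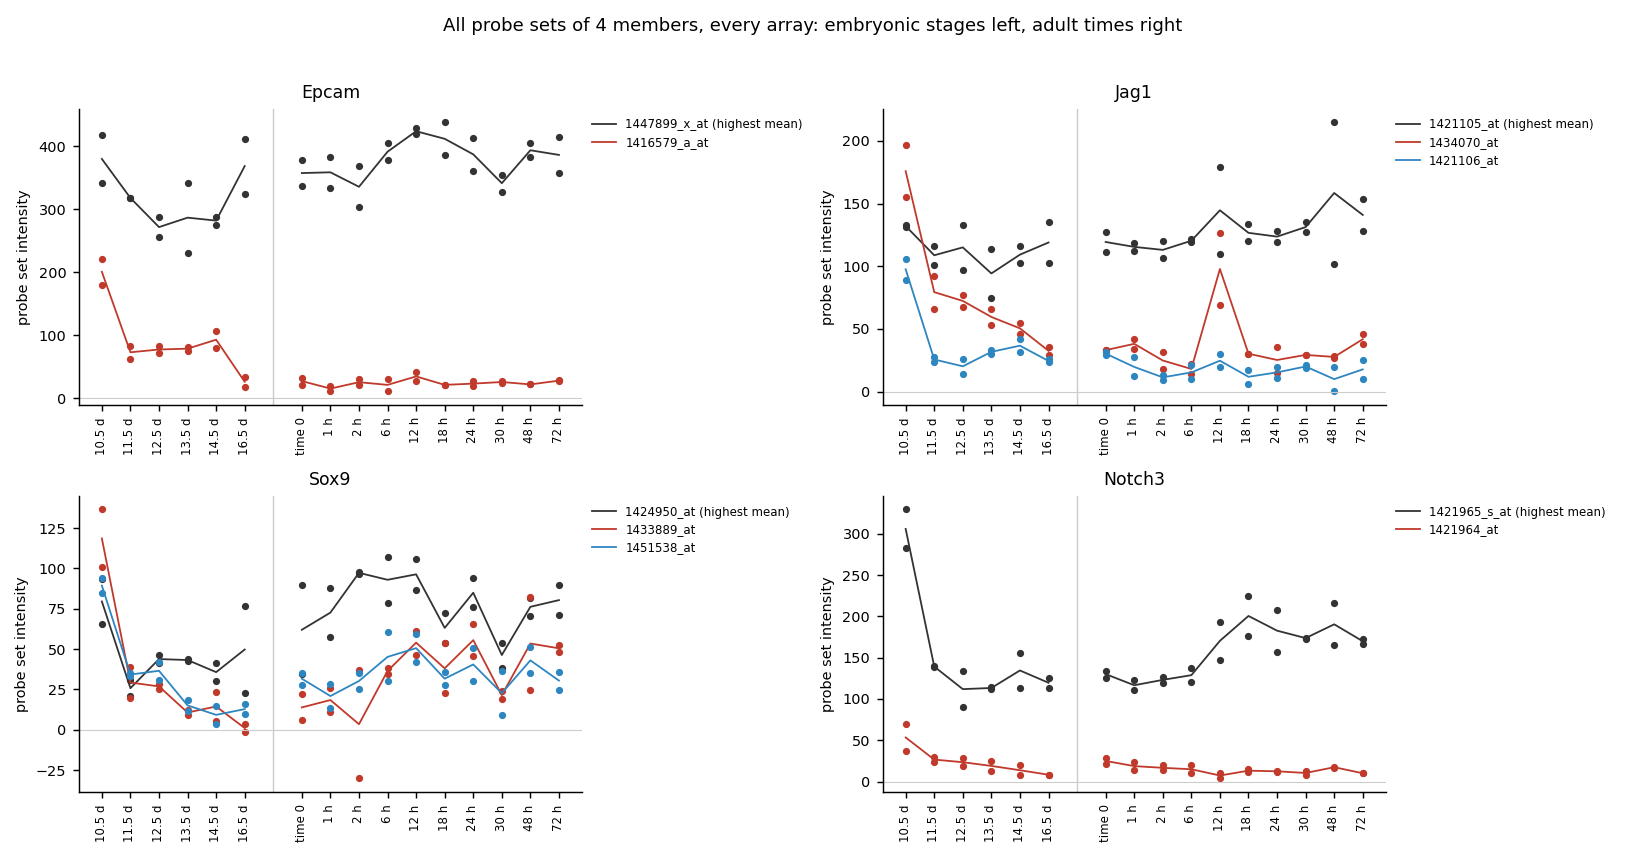
Intensity (linear) of every probe set of Epcam, Jag1, Sox9 and Notch3 on every array, embryonic stages in days on the left and adult times on the right; points are arrays, lines group means, and black is the probe set of highest mean, red and blue the others. The red probe sets of Epcam and Jag1 are highest at 10.5 days, while the black ones at 10.5 days lie within the range of adult liver.

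**Figure D4:**
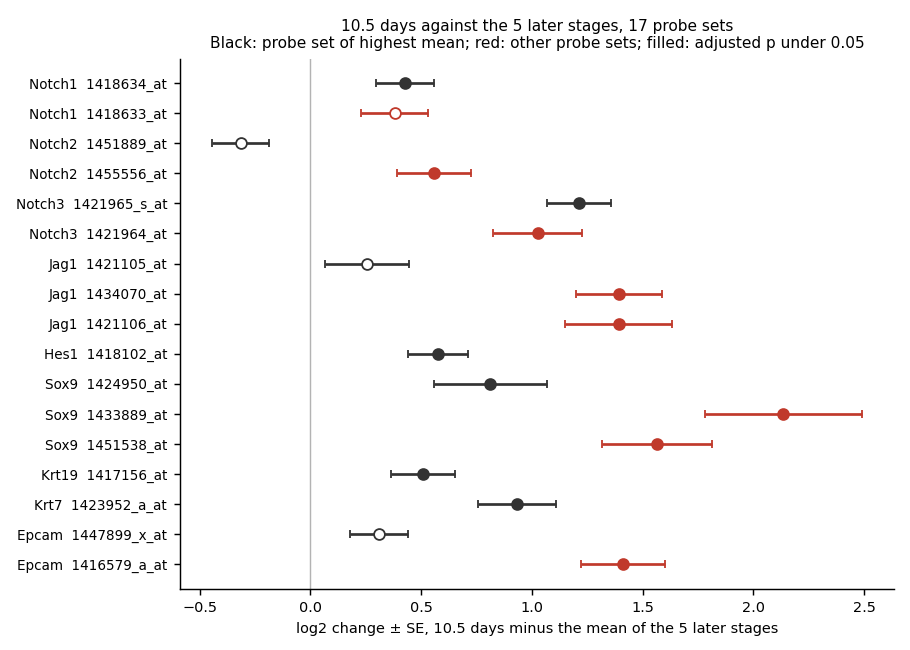
Log2 change with its standard error at 10.5 days against the mean of the 5 later stages for all 17 probe sets of the 9 members; black marks the probe set of highest mean, red the others, and filled points an adjusted p under 0.05 over 34958 probe sets. Of the 17, 13 are filled, all to the right of 0.

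Markers of other cells also differed between 10.5 days and the later stages, in a contrast that called 26.7% of all genes in either direction. Of 15 mesenchymal and stellate cell genes, 11 were higher and 1 lower at 10.5 days than later (median log2 change 0.93), with a summed level of 11090 to 13150 at 10.5 days against 5735 to 7692 later; after hepatectomy the sum was 2736 to 5286, against 3203 to 3645 at time 0. Col3a1, a fibrous collagen, read 3755 and 2784 at 10.5 days against 1392 to 2210 later, and Acta2 2453 and 2546 against 905.6 to 1649. Dcn, the gene of highest mean in this list, was not higher at 10.5 days. It read 341 and 246.5 there, against 256.5 to 699 later and 768 and 980 at time 0. Of 16 endothelial genes 8 were higher and 3 lower (sum 3161 to 4114 against 2232 to 3181). These sums overlapped, and the 4114 came from the first array of 10.5 days, where Clec4g read 1293 against 375 on the second. Of 14 genes of mesothelium and neighbouring organs 5 were higher and 0 lower (2031 to 2465 against 1187 to 1797). No marker of these 3 lists was at or below 0 on both arrays of 10.5 days. Their part in the levels of the members was not tested.

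Most hepatocyte, erythroid and macrophage markers were lower at 10.5 days than later, in the same contrast with 26.7% of all genes called. Of 14 hepatocyte genes 8 were lower and 0 higher (median -1.04), with sums of 6116 to 6594 at 10.5 days against 13250 to 27330 later. Tat and G6pc read below 0 at 10.5 days, as they did at 11.5 days. Of 9 erythroid genes 8 were lower and 0 higher (2892 to 3049 against 8591 to 27090), and of 13 macrophage genes 8 were lower and 0 higher (2622 to 4974 against 2785 to 6327). The macrophage sums overlapped. Csf1r read 2392 and 1344 at 10.5 days against 1140 to 2340 later, and Trem2 1896 and 761 against 621 to 1184. Cd5l read 11.1 and 1.94 against 70.8 to 1146. Of 11 genes of cell division 1 was lower and 0 higher. The part of these shares in the members' levels was not tested either.

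**Figure D5:**
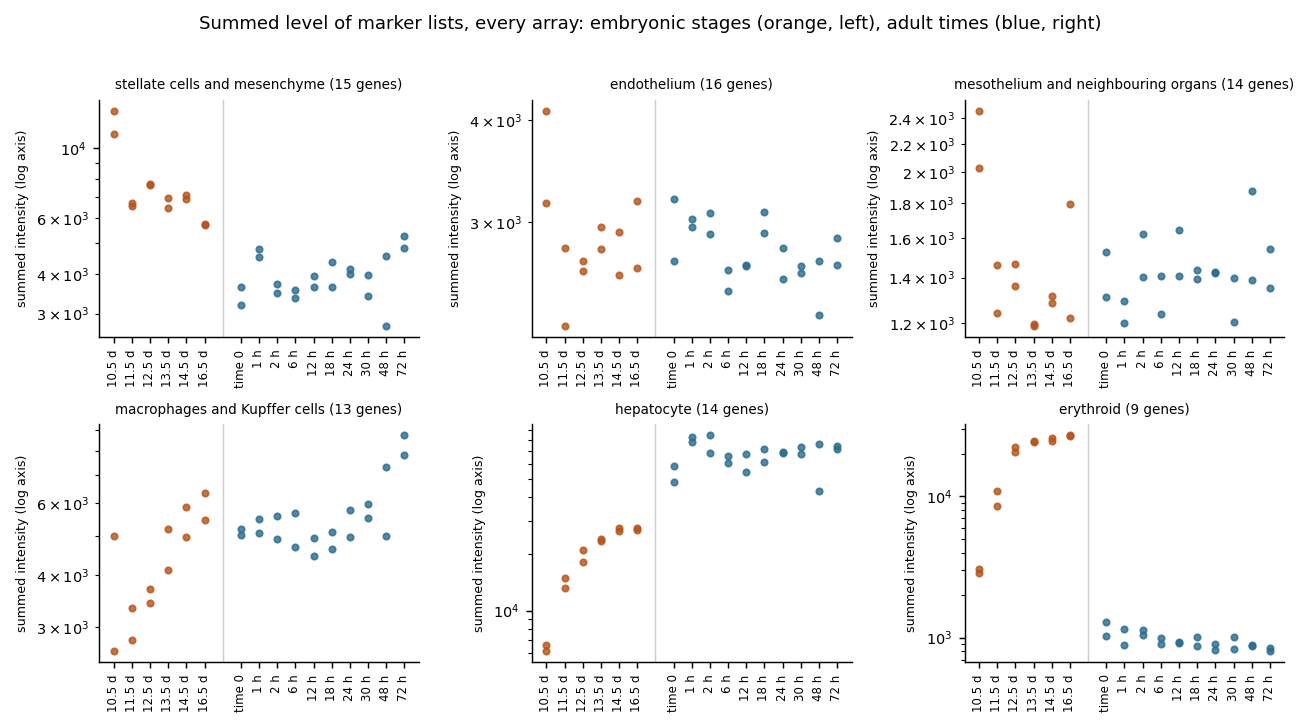
Summed intensity (log axis) of 6 marker lists on every array, embryonic stages in days on the left in orange and adult times on the right in blue; each point is 1 array and values below 0 count as 0. Mesenchymal genes sum to 11090 to 13150 at 10.5 days and 5735 to 7692 later, while hepatocyte and erythroid sums are lowest in the embryo at 10.5 days.

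The other receptors and ligands of the pathway split by gene. In the embryo against time 0, 3 of 8 were higher and 4 lower, where 55.7% of all genes were called in either direction, with a median change of -0.23 beside 0.02 for all genes. Dlk1, a Delta-like surface protein known as a marker of hepatoblasts, read 2321 to 4684 in the embryo, against 28.2 and 43.4 at time 0 (log2 change 6.08 ± 0.18, adjusted p = 9.51e-17); with probe sets that several transcripts may share left out, its change was 0.45 (adjusted p = 0.176). Notch4, the receptor of endothelium, read 54.8 to 366 in the embryo against 85.3 and 51.7 at time 0 (0.95 ± 0.18, adjusted p = 0.000126), and rose by 0.37 log2 per day (adjusted p = 3.63e-08); its mean over probe sets changed by 0.19 against time 0 (adjusted p = 0.188) and by 0.14 per day. Dll4, the endothelial ligand, was lower, at 37.4 to 70.8 in the embryo against 91.2 and 104 at time 0 (-0.66 ± 0.16, adjusted p = 0.00134), and Dner at 42.1 to 73.0 against 99.3 and 148; over the mean of their probe sets these changes were -0.22 and -0.18 and not called. Jag2 read below 0 on both arrays of 4 stages, so the size of its fall of -2.17 depends on the floor. Against 48 to 72 h the counts were 2 higher and 4 lower (background 66.6%), and at 10.5 days against later 1 and 2 (background 26.7%).

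After hepatectomy only Dlk2 was called among these 8, at 12 to 30 h (1.03 ± 0.29, adjusted p = 0.0468), and its time 0 arrays read 292 and 771. Without the first of them the change was 0.35 and the call was lost. The call was also lost on leaving out single arrays of other groups, such as the first of 1 h. Fitting only the groups compared ended it too (adjusted p = 0.213).

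Of 24 genes that process the receptors or control the ligands, 5 were higher and 5 lower in the embryo than at time 0 (median -0.03; background 55.7% of all genes called), and 7 and 7 against 48 to 72 h (background 66.6%). Adam10, the protease that makes the first cut of an activated receptor, read 753 to 1652 in the embryo against 209 and 189 at time 0 (2.58 ± 0.10, adjusted p = 7.43e-15). Pofut1, which puts fucose on Notch, read 137 to 216 against 61.2 and 44.1 (1.52 ± 0.16), and Fbxw7, which marks the active receptor for breakdown, 100.1 to 132 against 40.2 and 45.1 (1.17 ± 0.12). Psen2, a catalytic subunit of gamma-secretase, was lower at 198 to 360 against 956 and 902 (-1.71 ± 0.19), and Furin, which cleaves the receptor on its way to the surface, at 248 to 470.3 against 728 and 753 (-1.20 ± 0.19). Over the mean of its probe sets Pofut1 gave 0.75, and with a pseudocount of 64 Fbxw7 gave 0.76. The embryonic and time 0 arrays of each of these 5 genes did not overlap. That is no separate result, because the 5 were picked by smallest p in this comparison. The share of all genes without overlap was not counted. Over the stages 2 of the 24 rose per day, Adam10 (0.16) and Itch (0.12), and 2 fell, Poglut1 (-0.14) and Mib1 (-0.11), against a background of 27.9%. Without the second array of 16.5 days Itch gave 0.07, and without the groups of 10.5 days and 48 h Mib1 gave -0.09 (adjusted p = 0.058) and Adam10 0.10. At 10.5 days against later, 3 of the 24 were higher and 2 lower (background 26.7%). After hepatectomy only Aph1b, another gamma-secretase subunit, was called, at 12 to 30 h (0.81 ± 0.21, adjusted p = 0.0274), and without the first array of time 0 it gave 0.40 (adjusted p = 0.597). Without the second array of 24 h or the first of 30 h its adjusted p was 0.0532 and 0.0506, and with only the groups compared 0.142.

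Of 18 nuclear factors and targets, 8 were higher and 3 lower in the embryo than at time 0 (median 0.33; background 55.7%), and 8 and 5 against 48 to 72 h (background 66.6%). Rbpj, the DNA-binding partner of the receptors, read 140 to 267 in the embryo against 103 and 78.0 at time 0 (0.93 ± 0.14, adjusted p = 9.1e-06). Ctbp1 and Ctbp2, co-repressors that can sit with Rbpj, read 1011 to 1523 against 226 and 148 (2.72 ± 0.14) and 134 to 587 against 66.0 and 64.5 (1.68 ± 0.11). Myc was higher by 2.13 ± 0.22, and Hes6, a relative that opposes Hes1, was lower at 104.8 to 224 against 582 and 343 (-1.44 ± 0.20, adjusted p = 2.14e-06). Nrarp, a target that dampens the pathway, was higher in the embryo than at 48 to 72 h by 0.98 ± 0.14 (adjusted p = 1.99e-06), and by 0.40 over the mean of its probe sets. Over the stages 3 rose and 8 fell per day (background 27.9%). Id3 at -0.44, Ctbp2 at -0.30, Hey2 at -0.24 and Rbpj at -0.12 were among those that fell, and Spen at 0.15 among those that rose. Without the groups of 10.5 days and 48 h, Hey2 gave -0.13 and Rbpj -0.08 and neither was called. At 10.5 days against later, 9 of the 18 were higher and 1 lower (background 26.7%), with a median of 0.44.

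After hepatectomy Myc, a growth gene that Notch can switch on in blood cells, rose at 1 to 6 h by 1.60 ± 0.24 (adjusted p = 0.000459). Hes6 fell at 12 to 30 h (-1.59 ± 0.20, adjusted p = 6.93e-05) and at 48 to 72 h (-1.34 ± 0.22, adjusted p = 0.00108); its arrays of time 0 differed, at 582 and 343. Without the first array of time 0 the later fall was -0.97 (adjusted p = 0.0687), and with only the groups compared its adjusted p was 0.404.

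Of 31 further genes of bile duct epithelium, 8 were higher and 10 lower in the embryo than at time 0 (median 0.01; background 55.7%), 10 and 13 against 48 to 72 h (background 66.6%), and 9 and 5 at 10.5 days against later (median 0.28; background 26.7%). Cd24a, a surface protein that blood precursors carry too, read 3150 to 6676 in the embryo against 41.5 and 45.1 at time 0 (6.495 ± 0.18, adjusted p = 3.87e-17). Sox4, a duct transcription factor that works beside Sox9, read 236 to 1749 against 36.3 and 39.0 (3.40 ± 0.19) and fell by 0.45 log2 per day; over the mean of its probe sets these were 1.13 and -0.19, both still called. Onecut1, a liver transcription factor needed for ducts, was lower at 15.96 to 50.1 against 318 and 124 (-2.23 ± 0.25), and Krt18, a keratin that hepatocytes share with ducts, at 614 to 1118 against 1922 and 2068 (-1.25 ± 0.17, and -2.04 after quantile normalization). Against 48 to 72 h, Cldn7, a tight junction protein, was higher in the embryo by 1.32 ± 0.13 (0.63 with a pseudocount of 64) and Tgfb2, a growth factor, by 1.56 ± 0.16. Cldn7 and Tgfb2 fell per day by 0.23 and 0.25, while Aqp1, a water channel that red cells and endothelium carry too, rose by 0.58 and Vtcn1 by 0.37 per day. Without the groups of 10.5 days and 48 h the slope of Cldn7 was -0.10 (adjusted p = 0.108), that of Aqp1 0.35 and that of Vtcn1 0.17. After hepatectomy only Sox4 was called, lower at 12 to 30 h (-0.77 ± 0.20, adjusted p = 0.0281), and without the first or the second array of time 0 it gave -0.80 and -0.73 (adjusted p = 0.168 and 0.2). The call of Sox4 was also lost without the second array of 18 h, the second of 24 h or the first of 30 h. With only the groups compared (adjusted p = 0.209) or array weights (0.0666) it was lost too.

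Set in the order of the group means of their probe sets of highest mean, the members peaked in different places. Notch1, Notch3, Krt19 and Krt7 were highest at 10.5 days, Notch2 at 12.5 days, Hes1 at 72 h, Sox9 at 2 h, Jag1 at 48 h and Epcam at 12 h. The lowest groups were 18 h for Notch1 and Krt7, 12 h for Krt19, 2 h for Notch2, 12.5 days for Notch3 and Epcam, 13.5 days for Jag1, 16.5 days for Hes1 and 11.5 days for Sox9. Of the 15 pairs of neighbours in that order, 0 to 3 per member did not overlap between their arrays, so most neighbours could not be ordered. No such count was made over all genes. The top of Jag1 at 48 h comes from 1 array of 215 beside 102. Other probe sets gave another order. Notch2 1455556_at, Notch3 1421964_at, Jag1 1434070_at and 1421106_at, Sox9 1433889_at and 1451538_at, and Epcam 1416579_a_at were highest at 10.5 days. Notch1 1418633_at was highest at 1 h. Levels of different genes come from different probes and were not set against each other.

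The genes whose group means over the 16 groups were most like a member, among 14998 genes, are given as a description of groups that share arrays. They were Nars (Pearson r 0.95), Psmd7 (0.94) and Inpp5e (0.93) for Notch2, Afdn (0.89), Lrrc75a (0.87) and Irf2bpl (0.86) for Notch3, and Dsp (0.83), Chd4 (0.81) and Ppfibp2 (0.81) for Notch1. For Jag1 they were B3galt1 (0.90), Vwc2 (0.89) and Grm7 (0.88), and for Hes1 Nicn1 (0.89), Limk1 (0.88) and Id2 (0.87). For Sox9 they were Olfr65 (0.92), Spn-ps (0.91) and Rnd1 (0.90), for Krt19 Usp28 (0.82), Axl (0.82) and Rhoc (0.82), for Krt7 Aldh1a2 (0.92), Hspb2 (0.92) and Ints6 (0.91), and for Epcam Rbm15b (0.91), Pdzd9 (0.91) and Psg21 (0.91). Each list belongs to the probe set of highest mean, and no gene stands in more than 1 of them.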

How the data were processed

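RNA of whole liver was measured on 32 Affymetrix Mouse Genome 430 2.0 arrays in 16 groups of 2. The deposited values are the authors' linear intensity per probe set; the sources used here do not name the software or scaling. On each array 2.54 to 4.02% of values lay below 0, and medians ran from 69.7 to 79.5. These were set to 0 and all values taken as log2(intensity + 16).

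The annotation table gave 1 gene symbol for 34958 of 45101 probe sets, several for 932 and none for 9211, and each of 18194 genes was read from its probe set of highest mean. A mean for each group was fitted over all 32 arrays with limma 3.58.1 in R 4.3.3 (16 residual degrees of freedom, eBayes with an intensity trend), with Benjamini-Hochberg adjustment over all genes and calls under 0.05; the script was tested on simulated data. Members, gene lists and tests were chosen with earlier results of these data known, and the contrast of 10.5 days with later stages, the tests per probe set and the differences between probe sets were added after the data were seen. All members are named; other pathway and duct lists name up to 5 genes of smallest p among those called, marker lists up to 3 of highest mean, and likeness the 3 genes of highest Pearson correlation. Replicates are pools of animals, and their numbers are not known to pair samples across groups. Of 120 pairs of groups, 17 had correlations of same-numbered deviations over 0.1 (median -0.006, lowest -0.357, highest 0.555). Alternatives were other pseudocounts (4 and 64), quantile normalization, a filter on low values, other probe set rules, array weights, only the groups compared, a replicate block, and leaving out each array or the groups of 48 h and 10.5 days.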

Additional observations from a re-analysis of the deposited data

Results flagged for a closer look

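At 10.5 days, 6 members stood apart from the later embryonic stages in a test of that difference (limma, all 32 arrays): Notch3 by 1.21 on the log2 scale, Krt7 by 0.93, Sox9 by 0.81, Hes1 by 0.58, Krt19 by 0.51 and Notch1 by 0.43. The contrast was chosen after the values were seen, and 26.7% of all genes were called in it. Without the first array of 10.5 days, the one with the high Gapdh ratio, Sox9, Krt19 and Notch1 lost their calls (limma adjusted p = 0.319, 0.347 and 0.274). Other probe sets of Sox9 were higher at 10.5 days by 2.13 (1433889_at) and 1.57 (1451538_at). With any 1 array left out these were 1.94 to 2.33 and 1.5 to 1.63. Notch1 1418633_at gave 0.38, and 0.11 to 0.65 with any 1 array left out. Mesenchymal marker sums were 11090 to 13150 at 10.5 days and 5735 to 7692 later, and their part in these differences was not tested. For a pair of members a probe set that the choice of the highest mean leaves out differed between embryo and time 0: Epcam 1416579_a_at by 1.15 and Jag1 1434070_at by 0.8, where the probe sets of highest mean gave -0.18 and -0.08. The third probe set of Jag1, 1421106_at, gave 0.13 there (limma adjusted p = 0.676).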

How the results depend on the processing

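Counts that moved by over 1.5 times follow, and in each case the cause was not tested unless fewer samples are named. Quantile normalization called 1 member for 12 to 30 h, 2 for embryo against time 0, and 743 genes for 48 to 72 h (482 as reported). With the mean of a gene's probe sets, 4 members were called in the embryo against time 0, 6 per day and 7 over the 6 stages; Jag1 turned to 0.28 against time 0 and 0.43 against 48 to 72 h, Epcam to 0.49 and 0.46, and, against 48 to 72 h, Notch1 to -0.2 and Notch3 to 0.02. Without _x_at and _s_at probe sets, 2 members were called against time 0 and 1 over the 9 times, Epcam turned to 1.15 and 1.22, and Notch3 to 0.34 against 48 to 72 h. With every probe set tested on its own, 3 members were called in the embryo against time 0 and 6 per day. With only the groups compared, so fewer samples, 79 genes were called for 1 to 6 h, then 113 for 12 to 30 h and 0 for 48 to 72 h (limma, 1194 at an unadjusted p under 0.05) and 1619 over the 9 times, with 2 members against time 0 and 0 over the 9 times. Array weights called 204 genes at 48 to 72 h and 2 members in the embryo against 48 to 72 h. Without the groups of 48 h and 10.5 days, 1415 genes were called for 12 to 30 h, 939 for 48 to 72 h and 2329 over the stages, with 2 members against time 0, 0 per day and 1 over the stages, and Jag1 1421106_at turned to 0.03 per day; the contrast of 10.5 days with later stages has no value there. The replicate block, for numbers not known to pair samples, called 2 members in the embryo against time 0. Leaving out 1 array at a time gave 109 to 250 genes for 1 to 6 h (178 as reported), 363 to 1328 for 12 to 30 h (871), 254 to 1355 for 48 to 72 h, 2777 to 6469 over the 9 times (3305) and 2659 to 5512 at 10.5 days against later (4859); members called were 0 to 3 in the embryo against time 0, 3 to 6 against 48 to 72 h, 0 to 3 over the 9 times, 2 to 5 over the stages and 3 to 7 at 10.5 days against later. Of 62 results for other pathway and duct genes, 47 kept direction and call under all 42 alternatives. Probe sets near or below the array median, such as Sox9, Krt19, Krt7 and the second of Notch3, are those whose signal limits what can be told apart.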
